A study of Mus musculus with 20 samples.

Results

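Lrg1, Saa3, Cp, Hp and Pla2g2a code for secreted proteins of the acute-phase response, and their transcripts were measured in eosinophils and macrophages sorted from the mouse colon. The 5 genes were chosen by their names from 50600 gene rows, after a first reading of these same data had shown them higher in tumor than in naive cells of at least 1 of the cell types. The values that chose them are therefore the tumor against naive differences, which are given below as a description with no test of these 5 genes. The contrast of eosinophils against macrophages, and the variation between tumor libraries, were not used in that choice and were tested. The contrast is not independent of the choice, since it uses the same libraries. A gene chosen for a high tumor against naive difference tends to be low in those naive libraries and high in those tumor libraries.

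Colons of wild-type mice of the C57BL/6 strain were digested with enzymes, flow cytometry was used to sort eosinophils and macrophages, and Trizol to extract RNA. Libraries were made by CEL-Seq, which barcodes the 3′ end of polyadenylated RNA and amplifies it by in vitro transcription, with 3 technical replicates per sample. There were 7 libraries of eosinophils from tumors, 2 of eosinophils from naive colon, 6 of macrophages from tumors and 5 of macrophages from naive colon. Tumors had followed an induction that the labels call CAC, and the naive mice served as controls. The agents of the induction, the age of the mice, the sort markers, whether mice were pooled, and whether the libraries of a group came from separate mice are details not given in the sources used here. As a result, p-values below measure the spread between these samples, which may be technical.

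The acute-phase response is the change in secreted proteins that follows infection, injury or inflammation. Interleukin-6 family cytokines, interleukin-1 and tumor necrosis factor induce these proteins through STAT3, C/EBP and NF-kB factors. The liver makes most of the circulating proteins, and leukocytes and epithelium make part of them locally. Lrg1 encodes leucine-rich alpha-2-glycoprotein, which binds endoglin and modifies TGF-beta signalling in endothelium. Saa3 is the serum amyloid A of the mouse that is made mainly outside the liver, and serum amyloid A proteins can act on Tlr2 and on the formyl peptide receptor Fpr2. Cp encodes ceruloplasmin, the copper-containing ferroxidase that oxidises iron leaving cells so that transferrin can bind it. Hp encodes haptoglobin, which captures free haemoglobin for uptake through Cd163. Pla2g2a encodes the group IIA secreted phospholipase A2, an enzyme that attacks bacterial membranes. In C57BL/6 mice a frameshift disrupts the Pla2g2a reading frame, so its RNA here does not stand for a working enzyme, and GENCODE lists the gene as a polymorphic pseudogene.

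In the GENCODE M21 annotation of GRCm38 the genes lie apart from each other. Lrg1 is at chr17:56119678-56122001 on the minus strand, Saa3 at chr7:46711998-46715700 on the minus strand and Cp at chr3:19957054-20009145 on the plus strand. Hp is at chr8:109575128-109579172 on the minus strand and Pla2g2a at chr4:138831857-138835186 on the plus strand. Promoter sequences of RefSeq on GRCm38.p6 were found for 3 of the 5 genes, and are shown because Lrg1 and Saa3 stood higher in tumors in both cell types while Cp did so in eosinophils and overlapped between the macrophage groups. Each holds 250 bases before and 50 after an annotated transcript start, 5′ to 3′ on the strand of the gene, and capitals mark TATAAA read on either strand.
Lrg1, chr17:56121897-56122196, minus strand: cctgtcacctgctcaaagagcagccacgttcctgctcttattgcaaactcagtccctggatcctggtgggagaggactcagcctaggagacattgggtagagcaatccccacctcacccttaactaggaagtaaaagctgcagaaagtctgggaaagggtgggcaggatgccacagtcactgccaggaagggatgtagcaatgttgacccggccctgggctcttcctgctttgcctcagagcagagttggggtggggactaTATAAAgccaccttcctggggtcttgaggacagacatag
Saa3, chr7:46715627-46715926, minus strand: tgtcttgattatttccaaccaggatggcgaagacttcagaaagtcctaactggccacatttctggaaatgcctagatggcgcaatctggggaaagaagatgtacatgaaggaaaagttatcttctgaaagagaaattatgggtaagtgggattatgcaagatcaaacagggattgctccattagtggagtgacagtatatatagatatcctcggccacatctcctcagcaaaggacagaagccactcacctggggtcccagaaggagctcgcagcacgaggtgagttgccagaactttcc
Cp, chr3:19956999-19957298, plus strand, the later of 2 annotated windows: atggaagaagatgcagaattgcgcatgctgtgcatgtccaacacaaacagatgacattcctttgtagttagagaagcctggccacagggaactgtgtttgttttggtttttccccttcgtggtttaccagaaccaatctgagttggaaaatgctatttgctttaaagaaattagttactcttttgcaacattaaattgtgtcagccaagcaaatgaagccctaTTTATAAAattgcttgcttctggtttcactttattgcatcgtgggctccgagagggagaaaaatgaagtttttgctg

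Short motifs, 4 in number, were searched on both strands of these windows, with the share of all 32851 RefSeq promoter windows that hold each. They were TTCNNNGAA for STAT factors, in 8.3% of windows, and TTNNGNAAT for C/EBP factors, in 11.5%. A 10-base NF-kB motif was in 1.63% and TATAAA in 13.6%. Of these, TATAAA alone was found, in Lrg1 at bases 262 to 267 of the window and in Cp at bases 226 to 231, where it overlaps a match on the opposite strand at bases 224 to 229. The Saa3 window and the earlier Cp window held no match to any of the 4, which says only that these letters are absent from these windows.

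Library depth ran from 1477255 to 8520874 recovered reads, and 16282 to 20948 genes had a read in a library. Mitochondrial transcripts took 15.2 to 35.2% of reads in tumor eosinophils and 17.9 and 24.5% in naive eosinophils. They took 8.23 to 10.4% in tumor macrophages and 8.28 to 15.9% in naive macrophages. Summed eosinophil markers stood at 931 to 9864 CPM, read counts scaled to a common library total, in tumor eosinophils and at 2185 and 3078 CPM in naive eosinophils. They reached 60.1 CPM at most in tumor macrophages and 104 CPM in naive macrophages. Summed macrophage markers stood at 848 to 1493 CPM in tumor eosinophils and at 808 and 952 CPM in naive eosinophils, against 21614 to 33594 CPM in tumor macrophages and 19474 to 26706 CPM in naive macrophages. Neutrophil markers were plentiful in the eosinophil sort, with 4627 to 14589 CPM in tumor and 6490 and 11557 CPM in naive eosinophils, of which Retnlg made up most. They summed higher than the eosinophil markers in each of the 9 eosinophil libraries, so the purity of the sort is not settled by these files, and values called eosinophil are those of the libraries labelled so. In macrophages they summed to 234 to 860 CPM in tumor and 65.0 to 114 CPM in naive libraries. B and plasma cell markers summed to 9174 to 72027 CPM in tumor and 18080 to 75427 CPM in naive macrophages. In eosinophils they summed to 7191 to 17530 CPM in tumor and 4462 and 7532 CPM in naive libraries. Tumor macrophage libraries 1 and 2, highest in Lrg1 and Saa3 there, held 49649 and 72027 CPM. Purity of the macrophage sort is not settled either, and the part of this RNA was not tested. Hepatocyte markers summed to 110 CPM at most in any library, and Serpina1a was at 0 in all 20 libraries.

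In eosinophils all 5 genes were higher in every tumor library than in both naive libraries. The ratio of the group means was 32.2 for Lrg1, 18.0 for Saa3, 15.1 for Cp, 14.0 for Hp and 10.9 for Pla2g2a. In macrophages Lrg1, Saa3, Hp and Pla2g2a were likewise higher in every tumor library than in every naive library, with ratios of 16.8, 12.3, 13.5 and 16.2. Cp in macrophages had a ratio of 1.05 and its tumor and naive values overlapped. Values are the authors' normalised reads unless another scale is named, and each sorted cell type was scaled on its own. In bulk samples, fewer cells of a type and less RNA per cell cannot be told apart.

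**Figure D1:**
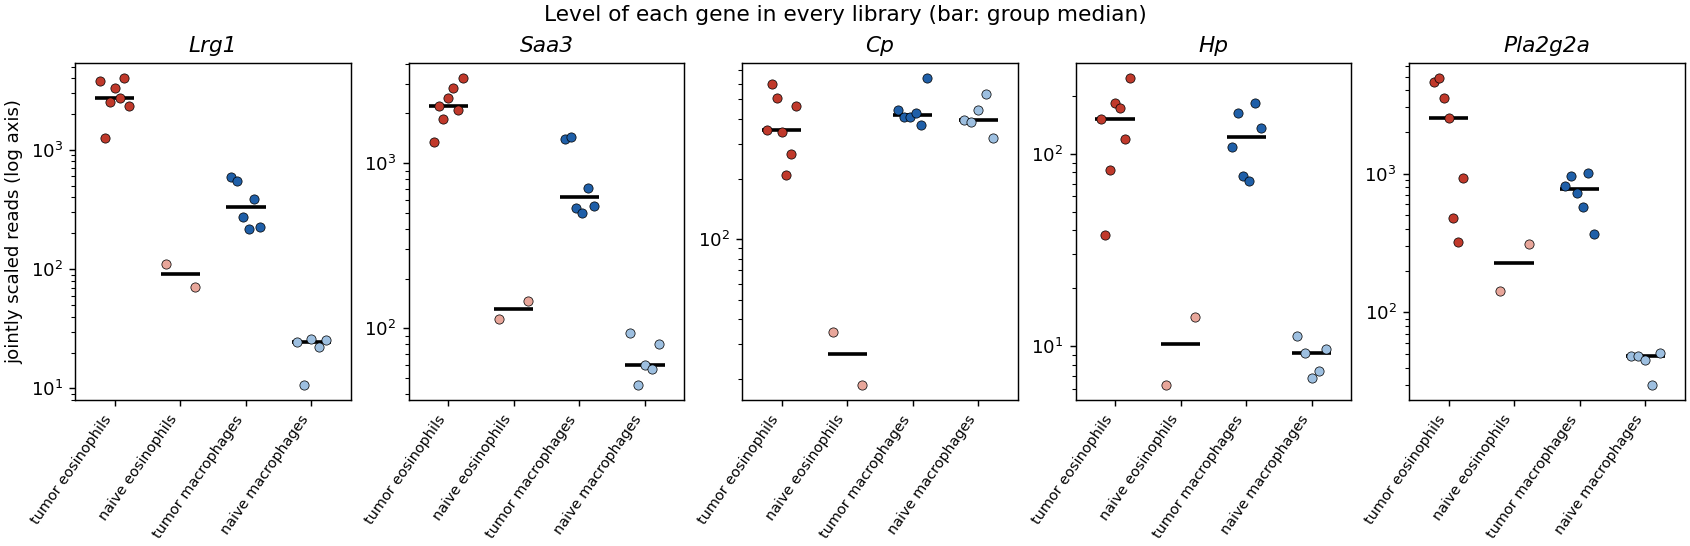
Level of each gene in every library, in jointly scaled reads on a log axis, with 1 point per library and a bar at the group median. The groups are tumor eosinophils (7 libraries), naive eosinophils (2), tumor macrophages (6) and naive macrophages (5). Cp is low in the 2 naive eosinophil libraries alone, while the other 4 genes are low in both naive groups.

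Lrg1 had 982 normalised reads in the lowest of the tumor eosinophil libraries, 2013 in the median and 3303 in the highest, against 81.8 and 54.3 in the naive eosinophil libraries. Even the lowest tumor library lay 12.0 times above the higher naive one. The means were 2189 ± 740.3 in tumor eosinophils (SD, n = 7) and 68.1 ± 19.4 in naive eosinophils (SD, n = 2), and the difference of log2(value + 1) was 4.93 ± 0.39 (SE). In macrophages Lrg1 had 196 normalised reads in the lowest tumor library, 299.8 in the median and 552 in the highest, against 23.2, 9.88, 24.4, 20.4 and 24.3 in the naive libraries. The groups did not overlap, and naive library 2 stood below the other 4 naive libraries. The log2 difference in macrophages was 3.94 ± 0.30 (SE).

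Saa3 had 975 normalised reads in the lowest tumor eosinophil library, 1750.3 in the median and 2530.4 in the highest, against 83.5 and 114 in the naive eosinophil libraries. Its tumor values were the tightest of the 5 genes in eosinophils, with a coefficient of variation of 27.4%. The log2 difference was 4.12 ± 0.33 (SE). In macrophages it had 445.5 reads in the lowest tumor library, 564 in the median and 1315 in the highest, against 89.2, 41.9, 56.6, 52.3 and 75.9 in the naive libraries. Tumor macrophage libraries 1 and 2, with 1304 and 1315 reads, stood above the other 4, which held 445.5 to 633. The log2 difference was 3.50 ± 0.30 (SE). Of 1017 windows of 36 bases over the last 500 bases of Saa3 transcripts, 25 were shared with its near copies Saa1 or Saa2, and 110 (10.8%) were shared with any of 641 other genes. Some Saa3 reads could belong to these genes, and that share was not tested. Saa1 itself reached 198 normalised reads at most in tumor eosinophils and 47.7 in tumor macrophages. The handling of shared reads was not given in the sources used here.

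Cp had 155 normalised reads in the lowest tumor eosinophil library, 256 in the median and 468 in the highest, against 25.5 and 14.5 in the naive eosinophil libraries. The groups were 6.06 times apart at their nearest values, and the log2 difference was 3.82 ± 0.41 (SE). In macrophages Cp was plentiful in naive colon already. The tumor macrophage libraries held 335 at the lowest, 379 in the median and 574 at the highest, against 376, 356, 416, 488 and 303.5 in the naive libraries. The log2 difference in macrophages was 0.07 ± 0.16 (SE), and Cp was not among the genes called there. Cp shares 108 exonic bases with Hps3 on the opposite strand, and use of the strand in counting was not given in the sources used here. Hps3 averaged 261 ± 84.3 normalised reads in tumor eosinophils (SD, n = 7), against 341 and 773 in the naive eosinophil libraries. The part of Hps3 reads in the Cp values was not tested.

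Hp had 29.7 normalised reads in the lowest tumor eosinophil library, 110.4 in the median and 192 in the highest, against 4.64 and 10.9 in the naive eosinophil libraries. The naive values rest on 8 and 9 reads, against 46 to 216 reads in the tumor libraries. The groups did not overlap, though tumor library 2 was only 2.73 times above naive library 2, and the log2 difference was 3.56 ± 0.59 (SE). In macrophages Hp had 64.5 in the lowest tumor library, 112 in the median and 165 in the highest, against 10.7, 8.47, 6.43, 6.80 and 9.11 in the naive libraries. The log2 difference there was 3.54 ± 0.27 (SE), from 3 to 18 reads in each naive library. A larger pseudocount lowers such differences of low genes, to 2.62 in eosinophils and 2.67 in macrophages with 10 in place of 1.

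Pla2g2a had 267 normalised reads in the lowest tumor eosinophil library, 1879 in the median and 3802 in the highest, against 105 and 241.5 in the naive eosinophil libraries. It was the most variable of the 5, with a 14.3-fold range among the tumor libraries and a lowest tumor value only 1.10 times the higher naive one. Libraries 1, 2 and 3 held 3341.5, 3802 and 2803 reads, library 4 held 1879, and libraries 5, 6 and 7 held 351, 267 and 721. The log2 difference was 2.95 ± 0.92 (SE), and Pla2g2a was not among the genes called in eosinophils. It was 2.36 without naive library 1 and 3.55 without naive library 2. In macrophages it had 333 in the lowest tumor library, 712 in the median and 916 in the highest, against 46.4, 44.2, 42.5, 27.7 and 48.6 in the naive libraries. The macrophage groups were 6.85 times apart at their nearest values, and the log2 difference was 3.93 ± 0.24 (SE). Pla2g2a overlaps Pla2g5 on the opposite strand but shares no exonic base with it.

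**Figure D2:**
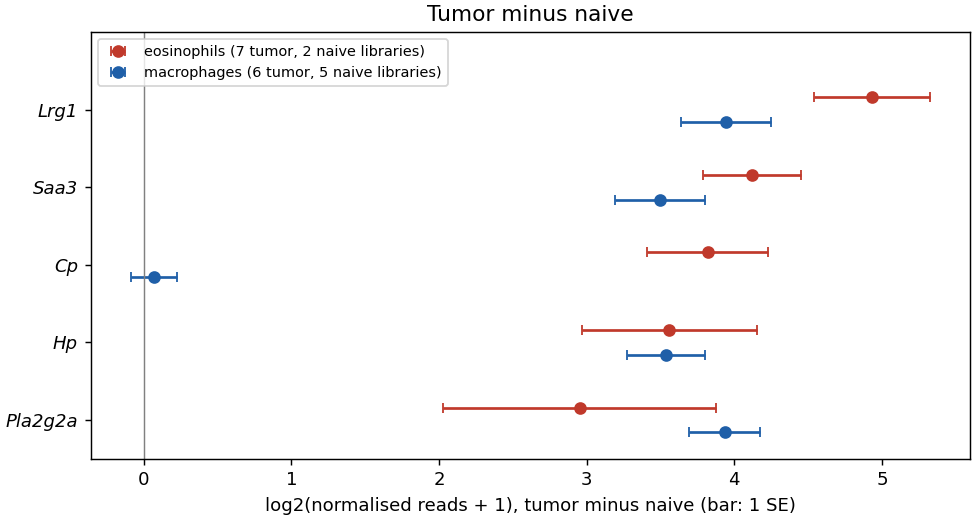
Difference of log2(normalised reads + 1), tumor minus naive, for each gene in eosinophils (7 tumor and 2 naive libraries) and macrophages (6 tumor and 5 naive libraries), where bars are 1 SE. Cp lies at 3.82 in eosinophils and at 0.07 in macrophages, while the other 4 genes lie between 2.95 and 4.93 in both.

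Over all genes, limma called 4.63% of 12984 tested in eosinophils, with 2.42% higher and 2.21% lower in tumors, at a Benjamini-Hochberg adjusted p under 0.05. In macrophages it called 17.1% of 11536, with 8.49% higher and 8.61% lower. Of the 5 genes, Lrg1, Saa3, Cp and Hp were among those called higher in eosinophils, and Lrg1, Saa3, Hp and Pla2g2a among those called higher in macrophages. Complete separation with every tumor library above every naive one was found for 7.32% of tested genes in eosinophils and 5.19% in macrophages, and held for 5 and 4 of the 5 genes. The opposite separation was found for 9.77% of tested genes in eosinophils and 5.47% in macrophages, and for none of the 5. These counts follow from how the genes were chosen. The eosinophil calls lean on the 2 naive libraries: the 601 genes called became 93 without naive library 2 and 953 without naive library 1.

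The tumor difference in eosinophils minus that in macrophages, from the joint fit of all 20 libraries, was 3.70 ± 0.40 (SE, log2) for Cp. It was 0.92 ± 0.52 for Lrg1, 0.56 ± 0.47 for Saa3, −0.01 ± 0.63 for Hp and −1.05 ± 0.92 for Pla2g2a. These estimates are built from the differences that chose the genes and were given no test. That for Hp was 0.08 with median-of-ratios scaling of the same reads.

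Whether eosinophils and macrophages held different amounts of these transcripts was tested on reads of both cell types scaled together. In tumors Lrg1 and Saa3 were higher in eosinophils than in macrophages. Pla2g2a in tumors did not pass. In naive colon Lrg1 and Pla2g2a were higher in eosinophils, and Cp was far lower in eosinophils than in macrophages. Hp did not pass the test in either setting. The background is wide, since 43.1% of 15047 tested genes differed between the cell types in tumors (19.8% higher in eosinophils) and 30.4% in naive colon (14.6% higher in eosinophils, 15.7% higher in macrophages). Summed neutrophil markers also stood higher in every eosinophil library (4627 CPM or more) than in every macrophage library (860 CPM or less), and their part in these differences was not tested.

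**Figure D3:**
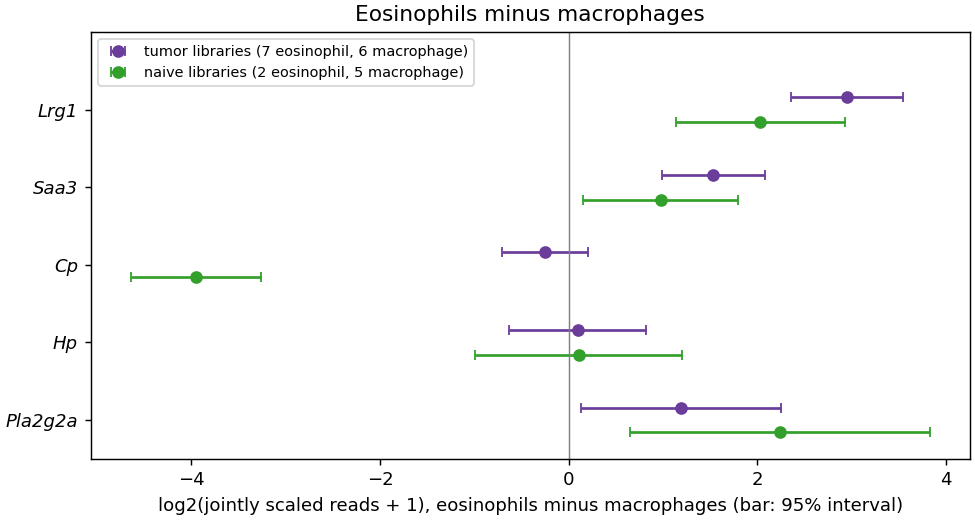
Difference of log2(jointly scaled reads + 1), eosinophils minus macrophages, for each gene among tumor libraries (7 eosinophil, 6 macrophage) and naive libraries (2 eosinophil, 5 macrophage), where bars are 95% intervals. For Cp the naive difference is −3.95 and the tumor difference −0.25, and for Lrg1 both intervals lie above 0.

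For Lrg1 the jointly scaled reads were 1256 to 3981 in tumor eosinophils (median 2731) and 219 to 591 in tumor macrophages (median 333). The groups did not overlap, and the log2 difference was 2.95 ± 0.29 (SE), with a 95% interval of 2.36 to 3.55, a 7.74-fold difference (limma adjusted p = 2.31e-08). Naive eosinophils held 111 and 70.3 and naive macrophages 10.7 to 25.9, a log2 difference of 2.03 ± 0.43 (limma adjusted p = 0.000837). The 4 groups thus ran in the order tumor eosinophils, tumor macrophages, naive eosinophils and naive macrophages, with no overlap between neighbours.

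Saa3 had the same order of groups, with an overlap between the lowest tumor eosinophil library and the highest tumor macrophage libraries. Tumor eosinophils held 1344 to 3258 (median 2223) and tumor macrophages 496 to 1430 (median 627), a log2 difference of 1.53 ± 0.26 (95% interval 0.99 to 2.08, limma adjusted p = 6.22e-05). Naive eosinophils held 113 and 147 and naive macrophages 45.6 to 93.9. The naive difference was 0.97 ± 0.39 (95% interval 0.16 to 1.79) and did not pass after adjustment (limma adjusted p = 0.0662). It passed without naive macrophage library 1, at 1.10 (limma adjusted p = 0.0424).

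Cp had another order. Its jointly scaled reads were 210 to 598 in tumor eosinophils (median 353), against 373 to 637 in tumor macrophages (median 418). These overlapped, and the log2 difference was −0.25 ± 0.22 with a 95% interval of −0.71 to 0.20 (limma adjusted p = 0.368). Naive eosinophils held 34.6 and 18.8, against 321 to 530 in naive macrophages, 15.5-fold higher in the macrophages. That log2 difference was −3.95 ± 0.33, with a 95% interval of −4.64 to −3.26 (limma adjusted p = 4.12e-09). The low naive eosinophil values were also part of what chose Cp, so this p is not independent of the choice. Tumor macrophages, naive macrophages and tumor eosinophils overlapped as neighbours, and naive eosinophils stood below all 3.

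The ranges of Hp in eosinophils and macrophages overlapped. Tumor eosinophils held 37.9 to 247 (median 152) and tumor macrophages 71.9 to 184 (median 123), a log2 difference of 0.10 ± 0.35 with a 95% interval of −0.63 to 0.82 (limma adjusted p = 0.842). Naive eosinophils held 6.28 and 14.1 and naive macrophages 6.82 to 11.3, a difference of 0.11 ± 0.53 with a 95% interval of −0.99 to 1.20 (limma adjusted p = 0.907). Tumor groups overlapped each other, naive groups overlapped each other, and every tumor library lay above every naive one. The intervals admit differences of either sign, and leaving out single libraries turned the sign of both.

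Pla2g2a held 321 to 4862 in tumor eosinophils (median 2518), a range that took in all of that in tumor macrophages, 369 to 1019 (median 773). The log2 difference was 1.19 ± 0.51 (95% interval 0.13 to 2.24) and did not pass after adjustment (limma adjusted p = 0.0634). It passed with edgeR on the reads, at 1.73 (edgeR adjusted p = 0.00558), and was 0.13 without tumor eosinophil libraries 1 to 3 (limma adjusted p = 0.821). Naive eosinophils held 142 and 313, against 30.1 to 51.3 in naive macrophages, a log2 difference of 2.24 ± 0.77 (95% interval 0.65 to 3.82, limma adjusted p = 0.0296). That call was lost without naive eosinophil library 2 (1.67, limma adjusted p = 0.278) or naive macrophage library 4 (limma adjusted p = 0.0564). The order was tumor eosinophils, tumor macrophages, naive eosinophils and naive macrophages, and only the first pair of neighbours overlapped.

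Transcripts of other cells varied along with some of these genes. Summed epithelium markers were 5587 to 5878 CPM in tumor eosinophil libraries 1 to 3 and 1921 to 2800 CPM in the other 4, against 2799 and 1739 CPM in naive eosinophils. The same 3 tumor libraries held the 3 highest Pla2g2a levels. Since the marker sums fall into 2 separate sets of libraries, no correlation is given over them. Without these 3 libraries, left out after their values were seen, the tumor minus naive log2 difference in eosinophils was 1.90 for Pla2g2a, 5.11 for Lrg1, 4.37 for Saa3, 3.55 for Cp and 4.06 for Hp. In macrophages epithelium markers summed to 1425 to 2472 CPM in tumor libraries and 572 to 3767 CPM in naive libraries. Of 14 epithelium markers tested in eosinophils, limma called Car1 and Slc26a3, both lower in tumors, and the median log2 difference was 0.60. In macrophages 4 of 13 (Cdh1, Cldn7, Krt18, Krt19) were called higher and the same 2 lower, with a median of 0.85. The shares of all genes were 2.42% higher and 2.21% lower in eosinophils, and 8.49% higher and 8.61% lower in macrophages. The part of epithelial RNA in the levels of the 5 genes was not tested. Markers of the sorted cells differed too. In tumor eosinophils 4 of 11 eosinophil markers tested were called lower (Ccr3, Il1rl1, Il5ra and Siglecf), though the median log2 difference of the list was 1.73. Of 10 macrophage markers tested there, Apoe, C1qb, C1qc and Lyz2 were called higher and Adgre1 lower, with a median of 1.72. For both lists the shares of all genes were 2.42% higher and 2.21% lower. The part of these shifts in the eosinophil values of the 5 genes was not tested.

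**Figure D4:**
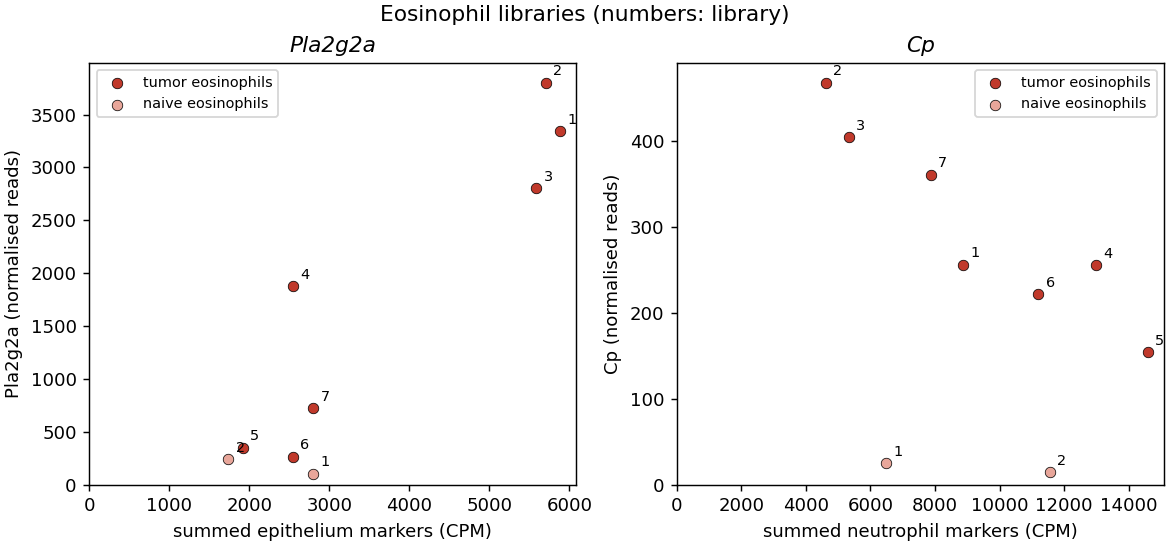
Eosinophil libraries by number, with tumor libraries dark and naive libraries pale. The left panel plots Pla2g2a (normalised reads) against summed epithelium markers (CPM), where tumor libraries 1, 2 and 3 lie apart at 5587 to 5878 CPM, and the right panel plots Cp against summed neutrophil markers (CPM), where Cp is lower in tumor libraries with more of these markers.

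Among the 7 tumor eosinophil libraries, Cp was lower where summed neutrophil markers were higher, with Pearson's r = −0.927 (exact permutation p = 0.00179) and Spearman's rho = −0.964 (exact permutation p = 0.00278). Neither passed adjustment over the 40 relations computed, at adjusted exact permutation p of 0.0714 and 0.111. Without the 2 libraries farthest from the median marker sum, r was −0.851. Retnlg averaged 8134 CPM of a mean sum of 9352 CPM in tumor eosinophils, and the relation without it was not tested. In tumor macrophages the largest member of the sum was Trem1, at 222 CPM of a mean of 544 CPM. The naive libraries, with 6490 and 11557 CPM of these markers, held the lowest Cp of the 9 eosinophil libraries. Neutrophil markers were called higher in tumors for 5 of 14 tested in eosinophils (Csf3r, Ltf, S100a8, S100a9, Trem1; median log2 difference 2.46). They were called higher for 6 of 10 in macrophages (Ltf, Ly6g, Mmp8, S100a8, S100a9, Trem1; median 2.34). These were all the calls in that list. The shares of all genes called higher were 2.42% in eosinophils and 8.49% in macrophages. Elane and Mpo were at 0 in both naive eosinophil libraries, had medians of 0.69 and 0 normalised reads in tumor eosinophils, and were not called.

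The other neutrophil marker relations in tumor eosinophils had r = 0.731 for Hp (exact permutation p = 0.0518), 0.654 for Lrg1 (0.102), 0.231 for Saa3 (0.645) and −0.677 for Pla2g2a (0.108), with adjusted p of 0.289 to 0.738. In the 6 tumor macrophage libraries Lrg1 and Saa3 were higher where neutrophil markers were higher. Spearman's rho was 0.943 for each (exact permutation p = 0.0167, adjusted 0.222), and r was 0.809 for Lrg1 (exact permutation p = 0.0569) and 0.841 for Saa3 (exact permutation p = 0.0694), both 0.289 adjusted. Without the 2 libraries farthest from the median marker sum, r was 0.929 for Lrg1 and 0.985 for Saa3. In the same libraries r was 0.796 for Hp, which rests on 2 libraries (−0.425 without them), 0.357 for Pla2g2a and 0.138 for Cp. The part of neutrophil RNA in the tumor levels of the 5 genes was not tested.

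In tumor macrophages Lrg1 and Saa3 varied together, with r = 0.962 (n = 6, exact permutation p = 0.00833, adjusted 0.167) and rho = 0.886 (exact permutation p = 0.0333, adjusted 0.320). Without the 2 libraries farthest from the median of Lrg1, r was 0.934. Both genes also varied with the neutrophil markers of these 6 libraries, as given above. In tumor eosinophils the same pair had r = −0.287 (n = 7, exact permutation p = 0.501). Cp and Pla2g2a in tumor macrophages had r = −0.863 (exact permutation p = 0.0389, adjusted 0.289), which rests on 2 libraries, since r was 0.0446 without them. For Cp and Pla2g2a in tumor eosinophils the sign was opposite, with r = 0.676 (exact permutation p = 0.101). There rho was 0.786 (exact permutation p = 0.0480, adjusted 0.320). None of the 40 relations passed adjustment. The unadjusted exact permutation p was under 0.05 for 4 by Pearson's r and for 6 by Spearman's rho, 7 relations in all.

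Across all 20 libraries the genes most like each of the 5 were read from the correlation of log2 jointly scaled reads over 13042 genes, as a description, because the libraries share their group structure. Lrg1 and Saa3 were most like the siderophore-binding protein Lcn2 (r = 0.976 and 0.972), and had r = 0.964 with each other. The second neighbours were Asprv1 for Lrg1 (0.968) and Ifitm1 for Saa3 (0.965). Lcn2 held 768 to 2996 jointly scaled reads in tumor eosinophils, against 127 and 63.6 in naive eosinophils, and 138 to 989 in tumor macrophages, against 6.14 to 33.8 in naive macrophages. Hp was most like the inducible nitric oxide synthase Nos2 (0.961), the myeloid receptor Trem1 (0.959) and the arginase Arg2 (0.944). Pla2g2a was most like the glutathione peroxidase Gpx2 (0.964), Wfdc18 (0.963) and the lipoxygenase Alox12 (0.962). Cp had other neighbours, the nucleolar protein Gar1 (0.923), the flap endonuclease Fen1 (0.874) and the aminotransferase Gpt2 (0.871). These neighbours were near the floor in the naive eosinophil libraries, at 1.56 and 10.2 jointly scaled reads for Gar1 and 0 and 5.50 for Fen1. Gpt2 was at 0 in both, with medians of 6.34 in tumor eosinophils and 12.0 in tumor macrophages. Cp was also the least like the other 4 genes, with r between 0.144 and 0.337, whereas pairs among those 4 had 0.769 to 0.964.

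Other acute-phase proteins did not move as a block. In eosinophils 4 of 15 tested were called, all higher in tumors, with a median log2 difference of 0.49 against 0.01 over all genes, of which 2.42% were called higher. Here and below, list genes are given as means ± SD over 7 tumor and 2 naive eosinophil libraries or 6 tumor and 5 naive macrophage libraries, followed by the log2 difference ± SE. Lcn2 averaged 1690 ± 628 normalised reads in tumor and 72.4 ± 35.9 in naive eosinophils (4.50 ± 0.47, limma adjusted p = 0.000917). The complement protein C3 averaged 523 ± 268 and 67.2 ± 24.5 in the same groups (2.86 ± 0.43, limma adjusted p = 0.00373). The metalloreductase Steap4 averaged 87.6 ± 25.7 in tumor and 6.93 ± 8.98 in naive eosinophils (4.16 ± 0.65, limma adjusted p = 0.00467). That difference was 2.58 without naive library 1 and 5.75 without naive library 2, and it was 2.59 with a pseudocount of 10. The serine protease inhibitor Serpina3g was also called, and lost its call when any 1 of the 9 libraries was left out. Its difference was 2.42, and 1.10 with a pseudocount of 10. Serpina3g was low in naive eosinophils and passed the low-value filter through the tumor libraries alone, so no p is given for it. In macrophages 6 of 12 were called, all higher, with a median of 1.01 against 0.02 over all genes, of which 8.49% were called higher. Il1rn, the interleukin-1 receptor antagonist, averaged 4529 ± 2124 in tumor and 709.5 ± 117 in naive macrophages (2.56 ± 0.26, limma adjusted p = 8.31e-06). Lcn2 rose by 4.51 ± 0.49 (limma adjusted p = 1.87e-05), C3 by 1.80 ± 0.21 (3.67e-05) and Steap4 by 3.44 ± 0.43, all log2 with SE. The difference of Steap4 was 1.71 with a pseudocount of 10. Steap4 was low in naive macrophages and passed the low-value filter through the tumor libraries alone, which favours that direction. It is counted among the 6 called, but no p is given for it. The other called members were Cfb and Serpina3g.

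**Figure D5:**
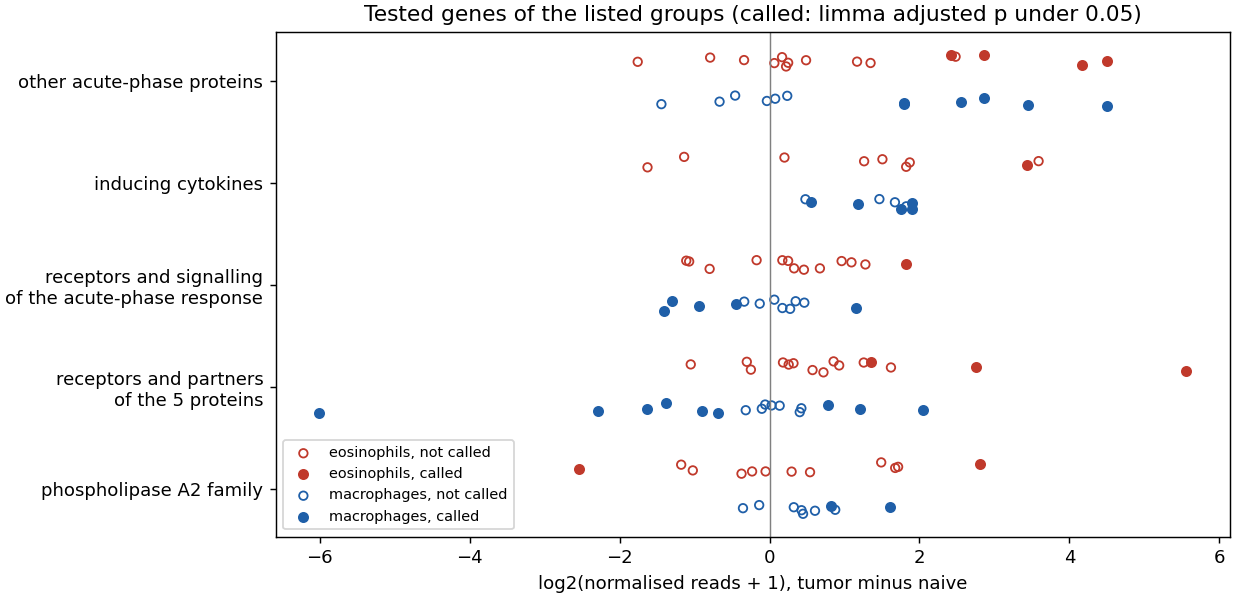
Difference of log2(normalised reads + 1), tumor minus naive, for each tested gene of 5 lists in eosinophils (red) and macrophages (blue), where filled points passed limma at an adjusted p under 0.05. Cd163 lies farthest left at −6.01 in macrophages (−4.18 with a pseudocount of 10) and Fpr2 farthest right at 5.56 in eosinophils.

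Of the cytokines that induce acute-phase proteins, 1 of 9 tested was called in eosinophils and 5 of 9 in macrophages, all higher in tumors, with median log2 differences of 1.51 and 1.67. Over all genes 2.42% were called higher in eosinophils and 8.49% in macrophages. The eosinophil count was 2 without tumor library 2, 3 or 5. Tumor necrosis factor, Tnf, averaged 635 ± 236 normalised reads in tumor and 53.4 ± 7.28 in naive eosinophils (3.43 ± 0.45, limma adjusted p = 0.00237). In macrophages the interleukin-6 family cytokine Osm averaged 475 ± 129 in tumor and 125 ± 25.0 in naive libraries (1.90 ± 0.20, limma adjusted p = 1.46e-05). Il1a rose by 1.89 ± 0.31 (limma adjusted p = 0.000552), Il1b by 1.17 ± 0.23 (0.00231) and Lif by 1.75 ± 0.44 (0.0124), and Tnf was called higher too.

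Receptors and signalling genes of the response were called in both directions. In eosinophils 1 of 13 was called, the feedback inhibitor Socs3, at 515 ± 171 in tumor and 139 ± 24.5 in naive eosinophils (1.82 ± 0.37, limma adjusted p = 0.0167). It was not called without naive library 2 (1.64, limma adjusted p = 0.205). In macrophages 1 of 12 was called higher, near the share of all genes (8.49%), and 4 lower, against 8.61% of all genes, with a median of −0.03. The shared interleukin-6 family receptor chain Il6st averaged 155 ± 27.0 in tumor and 379.9 ± 43.1 in naive macrophages (−1.30 ± 0.14, limma adjusted p = 1.90e-05). Il6ra, the interleukin-6 receptor, fell by 0.95 ± 0.13 (limma adjusted p = 0.000121) and the leukemia inhibitory factor receptor Lifr fell by 1.40 ± 0.27 (0.00189). The transcription factor Cebpb averaged 1025 ± 230.3 in tumor and 463 ± 116 in naive macrophages (1.15 ± 0.19, limma adjusted p = 0.000766). The fourth gene called lower was Nfkbiz.

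Among receptors and partners of the 5 proteins in macrophages, 3 of 16 tested were called higher and 6 lower, against 8.49% and 8.61% of all genes, with a median of −0.08. Cd163, the receptor for haptoglobin bound to haemoglobin, averaged 2.38 ± 0.67 in tumor and 220.6 ± 70.8 in naive macrophages. The log2 difference was −6.01 ± 0.25, and −4.18 with a pseudocount of 10, while Hp itself stood higher in tumor macrophages. When a naive macrophage library was left out, Cd163 no longer reached the low-value filter and was not tested. Cd163 passed that filter through the naive libraries alone, which fixed the direction of its difference, so no p is given for it. The TGF-beta family receptor Acvrl1, a partner in Lrg1 signalling, averaged 110.5 ± 13.8 in tumor and 288 ± 23.9 in naive macrophages (−1.38 ± 0.13, limma adjusted p = 4.66e-06). The scavenger receptor Cd36 fell by 2.29 ± 0.31 (limma adjusted p = 0.000115), and Eng, Pla2r1 and Scarb1 were also called lower. Tlr2 averaged 302 ± 97.7 in tumor and 124 ± 18.9 in naive macrophages (1.21 ± 0.23, limma adjusted p = 0.00181), and Fpr2 and Tfrc were also called higher.

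In eosinophils 3 of 15 tested partners were called, all higher, with a median of 0.72, against 2.42% of all genes called higher. Fpr2 averaged 1318 ± 799 normalised reads in tumor and 25.8 ± 21.7 in naive eosinophils (5.56 ± 0.76, limma adjusted p = 0.00271), and the difference was 4.62 without naive library 1 and 6.50 without naive library 2. Tlr2 averaged 38.1 ± 13.9 in tumor and 4.45 ± 0.54 in naive eosinophils (2.76 ± 0.49, and 1.68 with a pseudocount of 10). Tlr2 passed the low-value filter through the tumor libraries alone, which favours that direction. It is counted among the 3 called, but no p is given for it. Hmox1, the haem-degrading enzyme, averaged 103 ± 21.5 in tumor and 39.0 ± 5.59 in naive eosinophils (1.36 ± 0.32, limma adjusted p = 0.0320). Without naive library 2 the difference was 2.86 for Tlr2 and 1.22 for Hmox1, and neither was called. Hmox1 was not called without tumor library 4 (limma adjusted p = 0.0591) or 7 (0.0555) either.

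Most relatives of Pla2g2a in the phospholipase A2 family did not pass the test. In eosinophils 1 of 12 tested was called higher and 1 lower, against 2.42% and 2.21% of all genes, with a median log2 difference of 0.12. Pla2g3 averaged 27.6 ± 13.5 in tumor and 157 ± 79.8 in naive eosinophils (−2.55 ± 0.59, limma adjusted p = 0.0300). Pla2g12a averaged 104 ± 88.9 in tumor and 10.4 ± 2.39 in naive eosinophils (2.81 ± 0.73, limma adjusted p = 0.0468). Without naive library 2 neither Pla2g3 (−2.01, limma adjusted p = 0.389) nor Pla2g12a (3.03, 0.272) was called, and Pla2g12a was also lost without naive library 1 (0.144) or tumor library 1, 3, 4 or 6 (0.0559 to 0.0763). In macrophages 2 of 9 were called, both higher, with a median of 0.45. Of all genes there, 8.49% were called higher and 17.1% in either direction, and the count of 2 was not tested against these shares. Pla2g16 averaged 117 ± 20.3 in tumor and 65.2 ± 9.29 in naive macrophages (0.83 ± 0.16, limma adjusted p = 0.00207). Pla2g2f averaged 35.0 ± 8.79 in tumor and 13.4 ± 9.68 in naive macrophages (1.61 ± 0.43, limma adjusted p = 0.0182), and was not called without naive library 2 (1.33, limma adjusted p = 0.0508).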

How the data were processed

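RNA of sorted colonic eosinophils and macrophages was measured by CEL-Seq. The authors deposited 1 table per cell type holding a normalised read signal per gene and library. Per the submitters' processing notes, the build was GRCm38.p5 and the tools included HTSeq 0.6.1 and DESeq2 1.14.1, with the aligners Bowtie2 2.2.6 and TopHat2 2.1.0, and Trim Galore and FastQC 0.11.5. Their order, settings, annotation, use of strand and the way technical replicates were combined were not given in the sources used here. All 374526 non-zero values (100.0%) were whole multiples of the worth of 1 read in their library within 0.1 read, so reads and depth were recovered.

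Because the tables held normalised values, limma 3.58.1 (R 4.3.3, eBayes with trend, two-sided) on log2(value + 1) was used in place of the edgeR test planned for raw counts. Genes were kept at 10 or more in at least 2 eosinophil or 5 macrophage libraries, and all 5 genes passed. A gene under 10 throughout 1 group entered the test through the other group alone, which favours a difference in that direction. Differences on this scale understate the change of low genes. The 2 cell types were compared on recovered reads scaled together by TMM (edgeR 4.0.16), kept at 10 or more in at least 2 libraries. P-values were adjusted by Benjamini-Hochberg over all genes tested, and genes under 0.05 are called. The scripts were tested on simulated data. Alternatives were another pseudocount, no filter, another joint scaling, a replicate block, edgeR and DESeq2 1.42.0 on the recovered reads, CPM for the correlations, and leaving out each library. Leaving out 3 tumor eosinophil libraries was added after seeing the data.

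The 5 genes and all gene lists were chosen with earlier results of these data known. The rule for named genes took all 5 genes, at most 4 called genes with the smallest p per list and comparison, and the 3 most correlated genes of each of the 5. Where at most 5 genes make up a count they are named, and marker genes and further called list genes were named after their values were seen. No libraries of a group agreed within sampling noise. Replicate numbers were not treated as pairs.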

Additional observations from a re-analysis of the deposited data

Results flagged for a closer look

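Of 15 groups of values checked for a library far from the others, 2 held one, and chance flags about 1 in 20 groups. Lrg1 in naive macrophage library 2 stood at 9.88 normalised reads, below the other 4 naive macrophage libraries at 20.4 to 24.4. Cp in tumor macrophage library 6 stood at 574.23 normalised reads, above the other 5 tumor macrophage libraries, whose highest value was 413.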

How the results depend on the processing

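In tumor against naive eosinophils the 601 genes called became 1386 with DESeq2 and 93 to 953 when single libraries were left out, the lowest without naive library 2. With a pseudocount of 10 the Hp difference was 2.62 in eosinophils and 2.67 in macrophages. In tumor eosinophils against tumor macrophages, Pla2g2a passed with edgeR (1.73), DESeq2 (1.77) and median-of-ratios scaling (1.25), and ran from 0.92 to 1.58 without single libraries, passing without tumor eosinophil library 5, 6 or 7. The Hp difference ran from −0.068 to 0.38 there. In naive eosinophils against naive macrophages, single libraries moved Hp from −0.42 to 0.63, Pla2g2a from 1.67 to 2.80 and Saa3 from 0.79 to 1.16, and Pla2g2a did not pass without the filter (2.24, limma adjusted p = 0.0585). Lrg1 in both settings, Saa3 in tumors and Cp in naive colon passed in every alternative run. With CPM the correlation in tumor macrophages turned to −0.17 for Cp with Hp and to −0.23 for neutrophil markers with Cp. Of the 5 gene lists in eosinophils, cytokines called higher numbered 1, against 4 with DESeq2 and 3 without tumor libraries 1 to 3, and phospholipases called higher numbered 1, against 3 with DESeq2 and 0 with edgeR. The causes of these shifts were not tested.

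The replicate numbers carry no stated pairing. Deviations of same-numbered libraries from their group means, taken gene by gene, correlated at −0.219 to 0.136. With the replicate block, 1130 genes were called in eosinophils and 1233 in macrophages, and the eosinophil tumor difference of Pla2g2a was 4.47. Only numbers 1 and 2 occur in both eosinophil groups, so that blocked fit rests on tumor libraries 1 and 2, which held the highest Pla2g2a levels. In tumor eosinophils against tumor macrophages with the block, Pla2g2a passed at 1.32 and Hp was −0.068. With 2 naive eosinophil libraries, the spread within that group is poorly known. Hp in naive libraries rests on 3 to 18 reads each, which limits its fold.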
